A study of Mus musculus with 40 samples.

Results

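The 38 genes described here encode the machinery that releases synaptic vesicles and takes them up again, and they were taken by symbol from the 24060 gene rows of a count table of mouse striatal RNA. They were 6 SNAREs, 3 genes of SNARE recycling, 5 synaptotagmins, 2 complexins, 8 active zone genes, 10 genes of vesicle proteins and 4 genes of vesicle endocytosis, and all 38 had counts in every group. The table held 40 libraries in 10 groups of 4, from striata of adult mice. RiboTag libraries came from mice that received an AAV coding for a haemagglutinin-tagged ribosomal protein, Rpl22-HA, in the dorsal striatum. The IP was RNA bound to the tagged ribosomes, and the input was RNA of all cells from the cleared lysate. The Control group (strain C57/BL6NTac) gave 4 inputs and 4 IPs of the same mice, and its labels do not name the AAV. It was taken as the astrocyte RiboTag, driven by the GfaABC1D promoter, since the neuron RiboTag libraries are named for synapsin. The neuron group (WT, strain C57/BL6NTac) carried Rpl22-HA under the hSYN1 promoter, and its labels number the mice of the 4 inputs and the 4 IPs differently. The SAPAP3 cohort gave input and IP of 4 WT mice (C57/BL6J) and of 4 SAPAP3 KO mice (C57/BL6J-Dlgap3 KO), with no cell type in the labels of the IP. By the study's methods the SAPAP3 KO mice were older at injection than the C57/BL6NTac mice of the other RiboTag groups. The methods name no age at injection for the WT mice of this cohort. Bulk striatal RNA came from 4 WT and 4 SAPAP3 KO mice, both labelled with the strain C57/BL6NTac, and 1 animal number stands in the labels of both genotypes. An AAV marks the cells it reaches around the injection, so an IP covers a part of the striatum that need not be the same in every mouse.

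At a chemical synapse, vesicles filled with transmitter dock at the active zone, where scaffold proteins such as Bassoon, Piccolo and RIM hold them near calcium channels. The vesicle SNARE synaptobrevin (Vamp1, Vamp2) and the plasma membrane SNAREs syntaxin 1 and SNAP25 zip together with the help of Munc13 (Unc13 genes), complexin clamps the complex, and synaptotagmin triggers fusion when calcium binds. NSF with the SNAP adaptors (Napa, Napb) then takes the SNARE complex apart, and dynamin, amphiphysin and synaptojanin recycle the membrane. Most of these genes are used as neuronal genes, while Snap23 and Vamp3 serve exocytosis in many cell types, astrocytes included.

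Synapsin 1, encoded by Syn1, tethers vesicles to each other and to actin, and the human counterpart of its promoter drove the tag of the neuron group. The sequence before its start is shown for that reason and because Syn1 had the highest IP over input difference of the 38 genes in the Control group. It covers chrX:20920919-20921168 of GRCm38.p6 (RefSeq), 250 bases on the minus strand up to the base before the start of the gene, with capitals marking TTCAGCACC, the left part of the RE1 element bound by the repressor REST.
Syn1: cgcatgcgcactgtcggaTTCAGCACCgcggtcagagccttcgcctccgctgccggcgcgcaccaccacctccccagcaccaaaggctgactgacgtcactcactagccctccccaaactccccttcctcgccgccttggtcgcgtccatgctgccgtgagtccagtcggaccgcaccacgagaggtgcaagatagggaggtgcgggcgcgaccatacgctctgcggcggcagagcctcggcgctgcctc
On the strand of the gene the match ran from base 232 to base 224 before the start. Among windows of this length, searched on both strands, 94 of 27025 genes (0.348%) held these letters, and Syn1 was the single one of the 31 members with a promoter in the RefSeq table. The match describes the letters of the window, and whether REST binds there was not measured.

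The depth ranged from 23.4 to 84.1 M counted reads per library. Levels are given as CPM, counts per M counted reads, after scaling all 40 libraries by the TMM method, and IP over input is given as the difference of levels on the log2 scale, log2(FC), ± its standard error (SE), from edgeR's quasi-likelihood test. A gene is called higher or lower at a Benjamini-Hochberg adjusted p under 0.05 over all genes tested. In bulk RNA, fewer cells of a type and less RNA per cell cannot be told apart. The 10 astrocyte markers, such as Aldh1l1, Slc1a2 and Aqp4, were all higher in the Control IP, with a median log2(FC) of 2.97, while in the neuron IP 7 of 10 were lower and 1, Gfap, was higher (0.66 ± 0.20), with a median of -0.63. They were also all higher in the IP of SAPAP3 WT (median 2.30) and SAPAP3 KO mice (median 2.39). Microglial markers stood at a median of -5.45 in the Control IP and endothelial markers at -3.47, with 10 of 10 lower in each list. The 12 neuron markers, which include the genes of striatal projection neurons Ppp1r1b, Penk, Tac1, Drd1a, Drd2 and Adora2a, fell less far, with 9 lower, 2 higher and a median of -0.79. The projection neuron genes were all among the 9 lower. The 2 higher were Tubb3 (0.41 ± 0.048) and Gad1 (0.19 ± 0.044), and Gad2 was at -0.02 ± 0.041. No Control library and all 8 neuron libraries held Xist above 10 CPM, so sex, cohort and tag cannot be told apart between these groups. In the SAPAP3 cohort 1 of 4 mice of each genotype held Xist above 10 CPM.

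Both libraries of SAPAP3 WT mouse 1 lay apart from those of their groups. The input held 10976 CPM of the 38 genes summed, against 15144 to 15703 CPM in the other 3 inputs of its group, and 54 CPM of Slc17a7, the vesicular glutamate transporter of cortical neurons, against 407 to 527 CPM. The IP of this mouse held 24542 CPM of the 10 astrocyte markers summed against 30811 to 34731 CPM in the other 3 IPs, 4838 CPM of the 12 neuron markers against 3333 to 3932 CPM, and 11.7 CPM of Slc17a7 against 93.7 to 177 CPM. Some counts and medians that rest on this mouse are given with and without it. The others, and log2(FC) of single genes, are given with it only.

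Per length, Snap25 was the most abundant of the 38 genes in every group. In the Control input it held 505 ± 12 FPKM (SD, n = 4), followed by Rab3a with 191 ± 10 FPKM, the GTPase that brings vesicles to the active zone. Syp with 162 ± 4.17 FPKM, Cplx2 with 158 ± 7.36 FPKM and Syt1 with 156 ± 3.45 FPKM did not differ beyond their spread. The lowest were Snap23 with 5.22 ± 0.736 FPKM, Syn3 with 3.84 ± 0.104 FPKM and Unc13b with 1.35 ± 0.0362 FPKM. In the Control IP, Snap25 was again first with 500 ± 39.1 FPKM, and Syt11 came second with 232 ± 7.02 FPKM, after holding rank 6 in the input. In the neuron IP, Snap25 reached 1310 ± 131 FPKM and Snap23 was last with 1.62 ± 0.0287 FPKM. Lengths are merged exons of curated RefSeq transcripts, so a gene used mainly as a short isoform is understated.

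The IP of the Control group asked how much presynaptic RNA stays in an IP taken as that of astrocytes. Whether this RNA came from ribosomes of astrocytes, from tag in other cells or from input carried over was not tested. The 38 genes were neither depleted nor enriched as a group on the TMM scale. They had a median log2(FC) of -0.05, or 96.6% of the input, against -0.02 for all 15476 genes tested. Of the 38, 17 were higher and 15 lower in the IP than in the input, while 39.2% of all genes tested were called higher and 41.2% lower. None was over 2-fold higher, against 13.4% of all genes, and 2 were over 2-fold lower, against 13.5% of all genes. The shares called were therefore near those of all genes, and the share beyond 2-fold was below them. The summed level was 10645 to 11084 CPM in the 4 inputs and 10943 to 12417 CPM in the 4 IPs. Scaled to ribosomal protein genes instead of by TMM, 32 members were higher and 6 lower, with a median of 0.56 beside 0.59 for all genes, and with total counts the median was -0.27 beside -0.25. With the ribosomal scaling 13074 of 15476 genes were called in either direction.

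All 4 endocytosis genes were higher in the Control IP, from Snap91 (log2(FC) 0.21 ± 0.061), a clathrin adaptor, to Amph (0.50 ± 0.045), which encodes amphiphysin, with the GTPase dynamin gene Dnm1 at 0.26 ± 0.063 and the phosphatase gene Synj1 at 0.35 ± 0.039. Both complexins were lower, Cplx1 at -0.44 ± 0.046 and Cplx2 at -0.42 ± 0.040. Of 8 active zone genes 5 were lower, namely Unc13c, Rims2 (-0.87 ± 0.031), Rims1 (-0.80 ± 0.051), Erc2 (-0.42 ± 0.043) and Unc13a (-0.30 ± 0.059), and 2 were higher, Bsn (0.30 ± 0.071) and Unc13b (0.39 ± 0.050), with Pclo at -0.05 ± 0.087. Counts of Unc13a may include reads of Colgalt1, whose exons overlap it by 787 bases on the opposite strand, since the use of strand in counting is not stated in the sources used here. Of 10 vesicle protein genes 5 were higher, among them Syp (0.36 ± 0.056), Sv2a (0.29 ± 0.039) and Sv2c (0.30 ± 0.046), and 4 were lower, Rab3c (-0.26 ± 0.049), Rab3a (-0.24 ± 0.053), Sv2b (-0.20 ± 0.084) and Syn3 (-0.18 ± 0.038), with Syn2 at -0.09 ± 0.058, which was called lower with the mouse as a block (adjusted p = 0.045 in edgeR's quasi-likelihood test). Syn3 shares 3128 exon bases with Fbxo7 on the opposite strand, so its counts are uncertain. Of 3 SNARE recycling genes Nsf was higher (0.22 ± 0.049), Napa was lower (-0.15 ± 0.034) and Napb was at 0.03 ± 0.058. Napb shares 1662 exon bases with LOC108168731 on the same strand, so its counts may be affected. Under total counts Snap91, Nsf and Napb took the other sign, with log2(FC) of -0.01, 0.00 and -0.19.

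**Figure D1:**
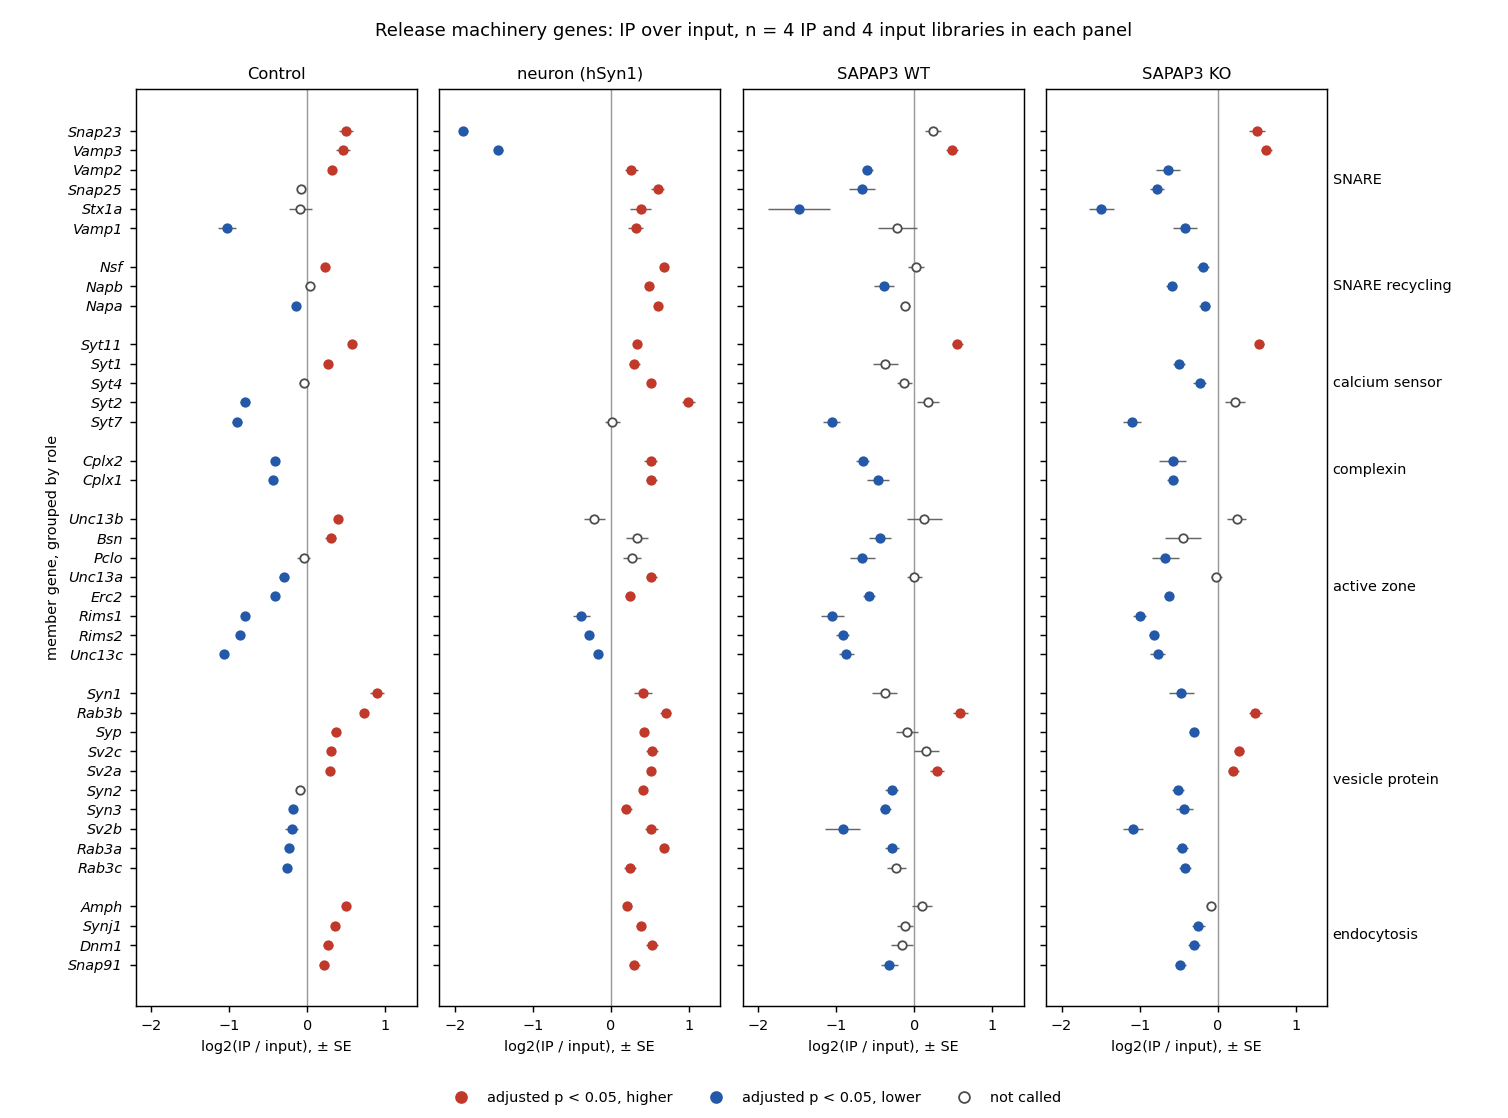
Log2(FC) of IP over input (TMM scale) with its SE for the 38 genes, grouped by role, in the Control, neuron, SAPAP3 WT and SAPAP3 KO groups, each from 4 IP and 4 input libraries. In the Control panel points lie on both sides of 0, from -1.07 to 0.89. In the neuron panel 32 of 38 lie above 0, which holds for the TMM scale and not for scaling to ribosomal protein genes, and in both SAPAP3 panels most lie below 0.

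The most retained members were Syn1, Rab3b and Syt11. Syn1 held 67.4, 80.1, 91.3 and 84.1 CPM in the 4 Control inputs and 145, 180, 140 and 162 CPM in the IPs of the same mice (log2(FC) 0.89 ± 0.093, adjusted p = 4.1e-06 by edgeR's quasi-likelihood test). Each IP was above every input. Rab3b, a Rab3 isoform, held 44.0, 44.0, 42.3 and 45.9 CPM in the inputs and 76.7, 83.0, 72.7 and 73.7 CPM in the IPs (0.73 ± 0.047, adjusted p = 5.8e-08 by the same test). Syt11, a synaptotagmin that does not bind calcium, held 671, 694, 693 and 668 CPM in the inputs and 1020, 1080, 1040 and 1090 CPM in the IPs (0.57 ± 0.034, adjusted p = 2.7e-08). The groups did not overlap in any of the 3 genes, which were picked as the highest members. The share of all genes whose inputs and IPs do not overlap was not counted, here or below.

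The least retained members were Unc13c, Vamp1 and Syt7. Unc13c, which encodes the priming factor Munc13-3, held 226, 225, 219 and 219 CPM in the inputs and 115, 102, 114 and 112 CPM in the IPs (-1.07 ± 0.043, adjusted p = 9.8e-10 by edgeR's quasi-likelihood test). Vamp1, a synaptobrevin, held 54.2, 61.8, 49.4 and 60.5 CPM in the inputs and 29.6, 31.3, 22.9 and 32.3 CPM in the IPs (-1.03 ± 0.11, adjusted p = 3.1e-06). Syt7, a slow calcium sensor, held 163, 163, 158 and 151 CPM in the inputs and 82.0, 104, 82.1 and 88.2 CPM in the IPs (-0.90 ± 0.067, adjusted p = 2.0e-07). Every IP was below every input in these 3 genes, which were picked as the lowest members. Syt2, the fast calcium sensor paralogous to Syt1, was also lower (-0.80 ± 0.068), while Syt1 was higher (0.26 ± 0.045) and Syt4 stood at -0.05 ± 0.064.

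Of the core SNAREs, Snap25 held 1190, 1180, 1210 and 1140 CPM in the Control inputs and 1110, 1280, 1070 and 1200 CPM in the IPs, and the groups overlapped (-0.08 ± 0.051, adjusted p = 0.15 by edgeR's quasi-likelihood test). Stx1a stood at -0.09 ± 0.15. Vamp2 held 134, 144, 156 and 146 CPM in the inputs and 188, 194, 182 and 193 CPM in the IPs, without overlap (0.32 ± 0.043, adjusted p = 3.8e-05). The paralogues of wider use were higher. Snap23 held 13.5, 9.72, 12.3 and 10.9 CPM in the inputs and 16.8, 16.5, 18.1 and 16.7 CPM in the IPs (0.49 ± 0.091), and Vamp3 held 30.2, 27.0, 35.3 and 32.2 CPM in the inputs and 42.2, 40.1, 51.1 and 45.9 CPM in the IPs (0.46 ± 0.088). Inputs and IPs did not overlap in either gene. Both rises were smaller than that of any of the 10 astrocyte markers, the lowest of which was S100b with 1.73.

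In the neuron IP, which asked the same of ribosomes tagged under the hSYN1 promoter, 29 of the 38 genes were higher than in the input and 5 were lower on the TMM scale, while 35.5% of all 16198 genes tested were called higher and 35.9% lower. The median log2(FC) was 0.38, or 130% of the input, against 0.00 for all genes and 0.83 for the 12 neuron markers, which were all higher. The summed level was 13888 to 15439 CPM in the inputs and 18015 to 21210 CPM in the IPs. Few genes of any kind rose over 2-fold in this IP, 0.420% of those tested, and no member did, while 2 members fell over 2-fold, against 15.8% of all genes. Scaled to ribosomal protein genes, 1 member was higher and 10 were lower, with a median of -0.12 beside -0.50 for all genes. With that scaling 11482 of 16198 genes were called in either direction.

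All 10 vesicle protein genes, 4 of 4 endocytosis genes, 3 of 3 SNARE recycling genes and both complexins were higher in the neuron IP, from Syn3 at 0.20 ± 0.068, which was -0.01 with total counts, to Rab3b at 0.70 ± 0.069. The highest was Syt2, which held 47.5, 43.2, 45.2 and 40.6 CPM in the inputs and 102, 86.4, 87.4 and 78.4 CPM in the IPs (0.99 ± 0.082, adjusted p = 2.9e-06 by edgeR's quasi-likelihood test). Rab3b held 45.2, 55.0, 53.3 and 54.7 CPM in the inputs and 78.1, 89.0, 83.1 and 90 CPM in the IPs (adjusted p = 9.4e-06). No IP overlapped the inputs in either gene. Snap25 held 2120, 1810, 2100 and 1940 CPM in the inputs and 3190, 2670, 3380 and 2960 CPM in the IPs (0.60 ± 0.082), also without overlap, and Vamp2 held 230, 230, 268 and 215 CPM in the inputs and 300, 266, 318 and 257 CPM in the IPs (0.26 ± 0.084), with overlap. Syt7 stood at 0.02 ± 0.091.

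The 5 lower members were Snap23, Vamp3 and 3 of the 8 active zone genes. Snap23 held 13.3, 13.5, 13.0 and 13.0 CPM in the neuron inputs and 3.69, 3.58, 3.55 and 3.60 CPM in the IPs, or 27.0% of the input (-1.89 ± 0.056, adjusted p = 1.1e-08 by edgeR's quasi-likelihood test). Vamp3 held 33.9, 35.1, 30.5 and 35.1 CPM in the inputs and 12.6, 12.5, 11.8 and 13.2 CPM in the IPs, or 36.9% of the input (-1.44 ± 0.058, adjusted p = 5.2e-08). These 2 genes lay far below the other members. The active zone genes Rims1 (-0.38 ± 0.11), Rims2 (-0.28 ± 0.037) and Unc13c (-0.17 ± 0.052) were lower by less, and Unc13a (0.52 ± 0.074) and Erc2 (0.24 ± 0.062) were higher. Bsn, Pclo and Unc13b, at 0.34 ± 0.14, 0.27 ± 0.12 and -0.21 ± 0.13, were not called, and with the title number as a block they were called, with adjusted p of 4e-06, 3.6e-06 and 0.00014 in edgeR's quasi-likelihood test.

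**Figure D2:**
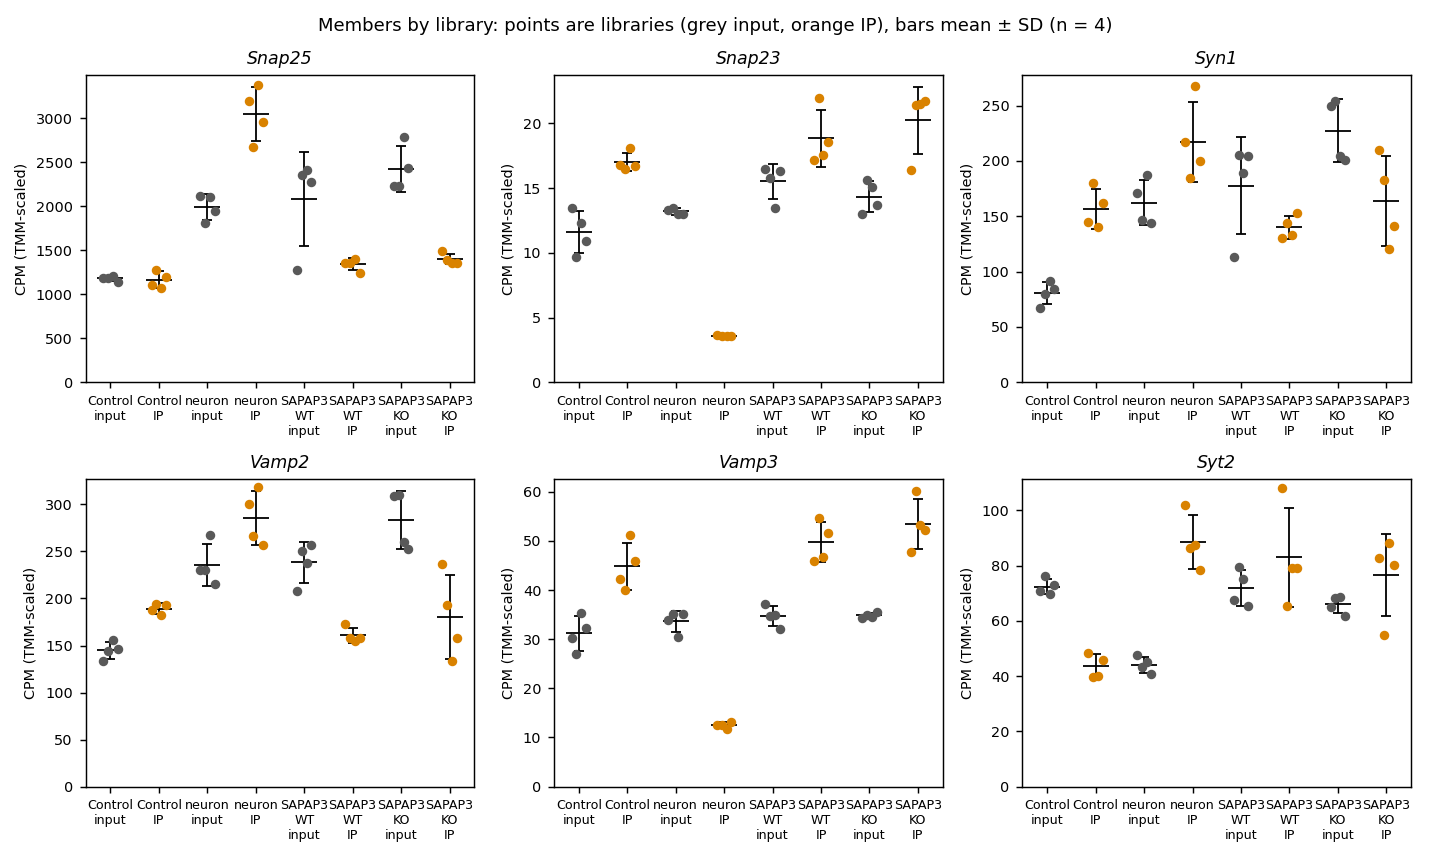
CPM after TMM scaling in each input (grey) and IP library (orange) of Snap25, Snap23, Syn1, Vamp2, Vamp3 and Syt2, with mean ± SD of 4 libraries. Snap23 and Vamp3 are lowest in the neuron IP, at 3.55 to 3.69 and 11.8 to 13.2 CPM, and the input of SAPAP3 WT mouse 1 lies below the other 3 of its group in Snap25 and Syn1.

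The difference between both tags was tested with an interaction term. The neuron IP over input was above the Control IP over input in 23 of 38 members and below it in 6, while 35.8% of all 16371 genes tested were called higher and 34.3% lower. The median difference was 0.43, against 0.02 for all genes and 1.48 for the neuron markers. Scaled to ribosomal protein genes, 1 member was above and 30 were below, with a median of -0.68 beside -1.09 for all genes. The shares of all genes above and below under that scaling were not counted. The 4 members with the lowest adjusted p were Snap23, Vamp3, Napa and Syt2. The difference was -2.38 ± 0.11 for Snap23 (adjusted p = 3.7e-12 by edgeR's quasi-likelihood test) and -1.90 ± 0.11 for Vamp3 (adjusted p = 1.1e-10). It was 1.79 ± 0.12 for Syt2 (adjusted p = 3.7e-10) and 0.76 ± 0.049 for Napa, the alpha-SNAP gene (adjusted p = 3.5e-10). Napa held 194, 196, 184 and 189 CPM in the Control IPs and 323, 311, 324 and 317 CPM in the neuron IPs. Beyond Snap23 and Vamp3, the members below 0 were Unc13b (-0.61 ± 0.15), Syn1 (-0.48 ± 0.17), Amph (-0.29 ± 0.079) and Syt11 (-0.24 ± 0.044). Both complexins were above 0 (Cplx1 0.97 ± 0.095, Cplx2 0.93 ± 0.10), as were Vamp1 (1.35 ± 0.16), Syt7 (0.92 ± 0.12), Rab3a (0.92 ± 0.064) and Snap25 (0.68 ± 0.10). Stx1a (0.46 ± 0.23) and Pclo (0.31 ± 0.17) were not called, and with the replicate number as a block they were, at 0.47 ± 0.11 and 0.31 ± 0.065. For Vamp2 (-0.05 ± 0.10), Rab3b (-0.03 ± 0.086) and Synj1 (0.03 ± 0.075) no difference was detected.

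In the SAPAP3 cohort more members were lower than higher in the IP. In WT mice 4 were higher and 18 lower, while 32.7% of all 15587 genes tested were called higher and 34.6% lower, and the median log2(FC) was -0.29 against -0.03 for all genes. None was over 2-fold higher, against 10.9% of all genes, and 3 were over 2-fold lower, against 12.1%. In SAPAP3 KO mice 6 were higher and 27 lower, while 36.1% of all 15583 genes tested were called higher and 35.9% lower, and the median was -0.44 against 0.00. None was over 2-fold higher, against 12.3% of all genes, and 4 were over 2-fold lower, against 11.5%. With the mouse as a block, 5 more members were called in WT mice, Syt1 (-0.34 ± 0.12), Syn1 (-0.35 ± 0.11) and Rab3c (-0.22 ± 0.082) as lower and Sv2c (0.15 ± 0.061) and Snap23 (0.24 ± 0.085) as higher, and 2 more in KO mice, Bsn (-0.51 ± 0.11) as lower and Unc13b (0.23 ± 0.071) as higher. Without both libraries of SAPAP3 WT mouse 1, WT mice had 5 higher and 25 lower members and a median of -0.38. In that fit 10542 of 15651 genes were called in either direction. Scaled to ribosomal protein genes, the number lower in WT mice was 10, at a median of -0.16 beside 0.10 for all genes. With that scaling 7459 of 15587 genes were called in either direction. The 10 oligodendrocyte markers had a median of 0.85 in the WT IP and 0.93 in the KO IP, with 8 higher in each, against 0.02 in the Control IP, and their part in the members' values was not tested.

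The highest members in SAPAP3 WT mice were Rab3b and Syt11. Rab3b held 41.2, 41.0, 52.1 and 49.5 CPM in the inputs and 75.0, 62.3, 74.9 and 70.9 CPM in the IPs (0.59 ± 0.096), and Syt11 held 668, 756, 786 and 778 CPM in the inputs and 1090, 1100, 1100 and 1190 CPM in the IPs (0.55 ± 0.069). In both the IPs lay above the inputs. In SAPAP3 KO mice Rab3b stood at 0.48 ± 0.083 and Syt11 at 0.53 ± 0.057. Vamp3 was higher in WT (0.48 ± 0.076) and KO mice (0.62 ± 0.071), as was Sv2a (0.29 ± 0.084 and 0.20 ± 0.073), a vesicle glycoprotein whose difference in KO mice was -0.01 with total counts. Snap23 stood at 0.24 ± 0.10 in WT mice and was higher in KO mice (0.50 ± 0.10).

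The lowest were Stx1a and Syt7. Stx1a, the plasma membrane syntaxin, held 26.4, 111, 90.4 and 100 CPM in the WT inputs and 17.3, 39.3, 27.1 and 37.2 CPM in the IPs (-1.48 ± 0.40, adjusted p = 0.0083 by edgeR's quasi-likelihood test). The input of mouse 1 lay within the range of the IPs. Syt7 held 148, 216, 217 and 222 CPM in the WT inputs and 99.1, 96.1, 101 and 99.2 CPM in the IPs (-1.06 ± 0.11, adjusted p = 2.7e-05), without overlap. Rims1 was the other member over 2-fold lower in WT mice (-1.05 ± 0.15). In KO mice Stx1a stood at -1.49 ± 0.16, Syt7 at -1.10 ± 0.11 and Sv2b at -1.09 ± 0.13. Snap25 held 1280, 2350, 2410 and 2270 CPM in the WT inputs and 1360, 1360, 1400 and 1240 CPM in the IPs (-0.67 ± 0.17), so that the IP of mouse 1 was above its input and that of the other 3 mice below. Vamp2 held 208, 251, 238 and 257 CPM in the WT inputs and 173, 158, 155 and 158 CPM in the IPs (-0.60 ± 0.072).

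The IP over input of SAPAP3 WT mice was below that of the Control group in 9 members and above it in 1, while 11.3% of all 16032 genes tested were called lower and 9.18% higher. The 4 members with the lowest adjusted p were Vamp2 (-0.90 ± 0.083, adjusted p = 9.8e-06 by edgeR's quasi-likelihood test), Syn1 (-1.25 ± 0.20, adjusted p = 8.5e-04), Syt2 (0.99 ± 0.17, adjusted p = 0.0013) and Synj1 (-0.45 ± 0.11, adjusted p = 0.0088). Syn1 held 113, 205, 189 and 204 CPM in the WT inputs and 130, 144, 133 and 153 CPM in the IPs. Syt2 held 67.7, 79.4, 75.0 and 65.3 CPM in the WT inputs and 108, 65.4, 79.2 and 79.3 CPM in the IPs, and Synj1 held 257, 354, 359 and 364 CPM in the inputs and 312, 323, 319 and 308 CPM in the IPs. The others below were Stx1a (-1.37 ± 0.46), Bsn (-0.72 ± 0.17), Syt1 (-0.61 ± 0.18), Pclo (-0.60 ± 0.20), Snap25 (-0.56 ± 0.19) and Snap91 (-0.51 ± 0.14). Without both libraries of mouse 1, or without its input alone, the count below was 17, and without any other of the 3 WT inputs it was 5. Without both libraries the median was -0.24 beside 0.04 for all genes. Scaled to ribosomal protein genes, 28 were below and 0 above, with a median of -0.68 beside -0.48 for all genes. With the mouse as a block 12 were below and 3 above, adding Syp (-0.40 ± 0.14), Sv2b (-0.65 ± 0.15) and Amph (-0.36 ± 0.10) below and Unc13a (0.33 ± 0.10) and Unc13c (0.22 ± 0.064) above. The median with the block was -0.18 beside 0.02 for all genes. In the same test 6 of 10 astrocyte markers were below the Control group, with a median of -0.45 and Slc1a2 lowest at -1.62 ± 0.17, while 9 of 10 oligodendrocyte markers (median 0.88) and 6 of 10 microglial markers (median 1.08) were above it. The part of these cell types in the members' values was not tested. Strain, cohort and any difference in age at injection or in the AAV cannot be told apart in this comparison.

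The IPs of these groups held similar amounts of the members, and the inputs did not. Summed over the 38 genes, the IPs held 10943 to 12417 CPM in the Control group, 11706 to 12194 CPM in SAPAP3 WT mice and 11430 to 13626 CPM in SAPAP3 KO mice. The inputs held 10645 to 11084 CPM in the Control group, 16106 to 16596 CPM in SAPAP3 KO mice, and 10976 CPM in SAPAP3 WT mouse 1 beside 15144 to 15703 CPM in the other 3 WT mice. By mouse, the median log2 ratio of the 38 genes over its own input was 0.13 in SAPAP3 WT mouse 1 and -0.385, -0.385 and -0.415 in mice 2 to 4. In the Control mice it was 0.015, 0.21, -0.125 and 0.135. The 12 neuron markers had a median of -0.575 in SAPAP3 WT mouse 1 and -0.515, -0.34 and -0.55 in the other mice, and so did not set mouse 1 apart.

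Among the inputs, the libraries lowest in the members were also lowest in Slc17a7. It held 53.1 to 80.7 CPM in the Control inputs and 54 CPM in the input of SAPAP3 WT mouse 1, the 5 libraries with the lowest summed members. It held 407 to 527 CPM in the other 3 WT inputs, 511 to 635 CPM in the KO inputs and 536 to 713 CPM in the neuron inputs. The order did not hold throughout. The neuron inputs held 13888 to 15439 CPM of the members, while the 3 WT inputs with less Slc17a7 held 15144 to 15703 CPM. The sum of the 12 neuron markers, a list that includes the projection neuron genes, went the other way. It was 5388 to 5725 CPM in the Control inputs and 5517 CPM in SAPAP3 WT mouse 1, and 3685 to 4176 CPM in the other 3 WT inputs. Single markers are not compared here and need not follow the sum. The part of cortical RNA or of dissection in the differences of the members between cohorts was not tested.

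**Figure D3:**
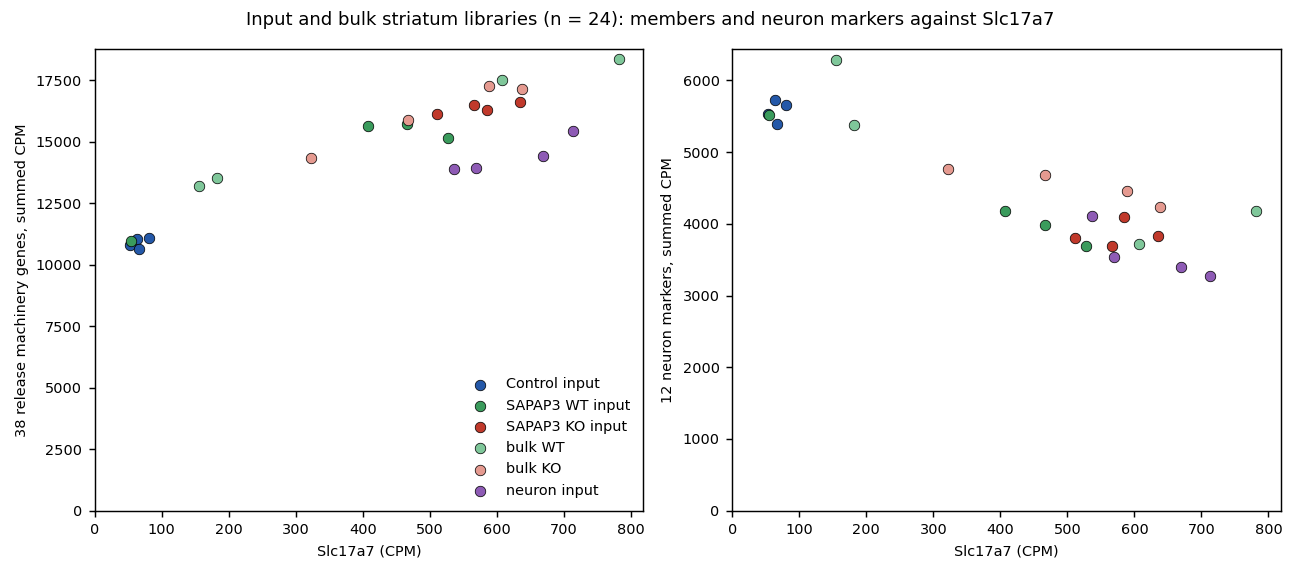
Summed CPM of the 38 genes (left) and of the 12 neuron markers (right) against the CPM of Slc17a7 in the 24 input and bulk libraries, 1 point each, coloured by group. The Control inputs and SAPAP3 WT mouse 1 lie together at 53.1 to 80.7 CPM of Slc17a7 with 10645 to 11084 CPM of the members, and the other libraries lie further right and higher on the left panel.

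SAPAP3, encoded by Dlgap3, is a postsynaptic scaffold protein whose loss in mice leads to excessive grooming. Dlgap3 held 358 to 469 CPM in the WT inputs and 158 to 193 CPM in the KO inputs (log2(FC) -1.19 ± 0.10), 168 to 225 CPM in the WT IPs and 55.2 to 95 CPM in the KO IPs (-1.40 ± 0.17), and 228 to 377 CPM in WT bulk and 136 to 157 CPM in KO bulk striatum (-1.14 ± 0.14). WT and KO libraries did not overlap in any of the 3 (exact two-sided permutation p = 0.029, the smallest that 4 against 4 can give). In edgeR's quasi-likelihood test the adjusted p was 0.0070, 0.028 and 0.32.

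None of the 38 release genes was called between genotypes, in the input, the IP or bulk striatum. Over all genes 0.00641% were called in the input, 0.0263% in the IP and 0% in bulk. At an unadjusted p under 0.05, 6 members differed in the input, 0 in the IP and 1 in bulk, against 869 of 15591, 399 of 15198 and 792 of 16020 genes. With DESeq2 and limma-voom no member was called in any of the 3 either. In the input 33 of 38 members lay above 0, with a median of 0.16, from Unc13c at -0.28 ± 0.10 to Stx1a at 0.36 ± 0.34 and Syn1 at 0.36 ± 0.17. Without both libraries of SAPAP3 WT mouse 1 the median was 0.07 and 6 members changed sign. With Slc17a7 as a covariate the median was 0.05 and 10 members changed sign. The median of all genes was 0.00 in both fits. Slc17a7 is itself a presynaptic gene and was chosen as a covariate after the data were seen. The cause of these shifts was not tested. In the IP 24 lay above 0, with a median of 0.04, and in bulk 27, with a median of 0.05. With DESeq2 the medians were 0.16, 0.04 and 0.05 in the input, IP and bulk, beside 0.00 for all genes in each. Shares of all genes above 0 are not given here. The difference in IP over input between KO and WT mice had a median of -0.11, with 0 members and 0% of all 16059 genes called by edgeR, and with 0 members and 203 genes at an unadjusted p under 0.05. DESeq2 and limma-voom called no member there. Without mouse 1 that median was 0.00. The SE of KO over WT in bulk ran from 0.05 for Rims2 and Napa to 0.38 for Stx1a. Dlgap3 itself, at -1.14 ± 0.14 in bulk, was not called there (adjusted p = 0.32 in edgeR's quasi-likelihood test). Changes of several SE in a member could thus have gone uncalled, and the lack of calls does not exclude them.

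In bulk striatum Slc17a7 also varied between libraries. In the 4 WT libraries Stx1a held 128, 50.6, 45.1 and 146 CPM, Sv2b held 691, 337, 359 and 693 CPM, and Slc17a7 held 782, 182, 155 and 607 CPM. Libraries 2 and 3 were low in all 3 genes. In the 4 KO libraries Stx1a held 110, 92.5, 113 and 66.7 CPM and Slc17a7 held 589, 467, 638 and 322 CPM. Syt4, an atypical synaptotagmin, was the member below an unadjusted p of 0.05 in bulk, at -0.15 ± 0.057 (adjusted p = 0.98 by edgeR's quasi-likelihood test). Rab3b lies 18.3 Mb from Dlgap3 on chromosome 4, the 1 member within 20 Mb of it, and stood at 0.09 ± 0.11, -0.05 ± 0.072 and 0.05 ± 0.088 in the input, the IP and bulk.

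**Figure D4:**
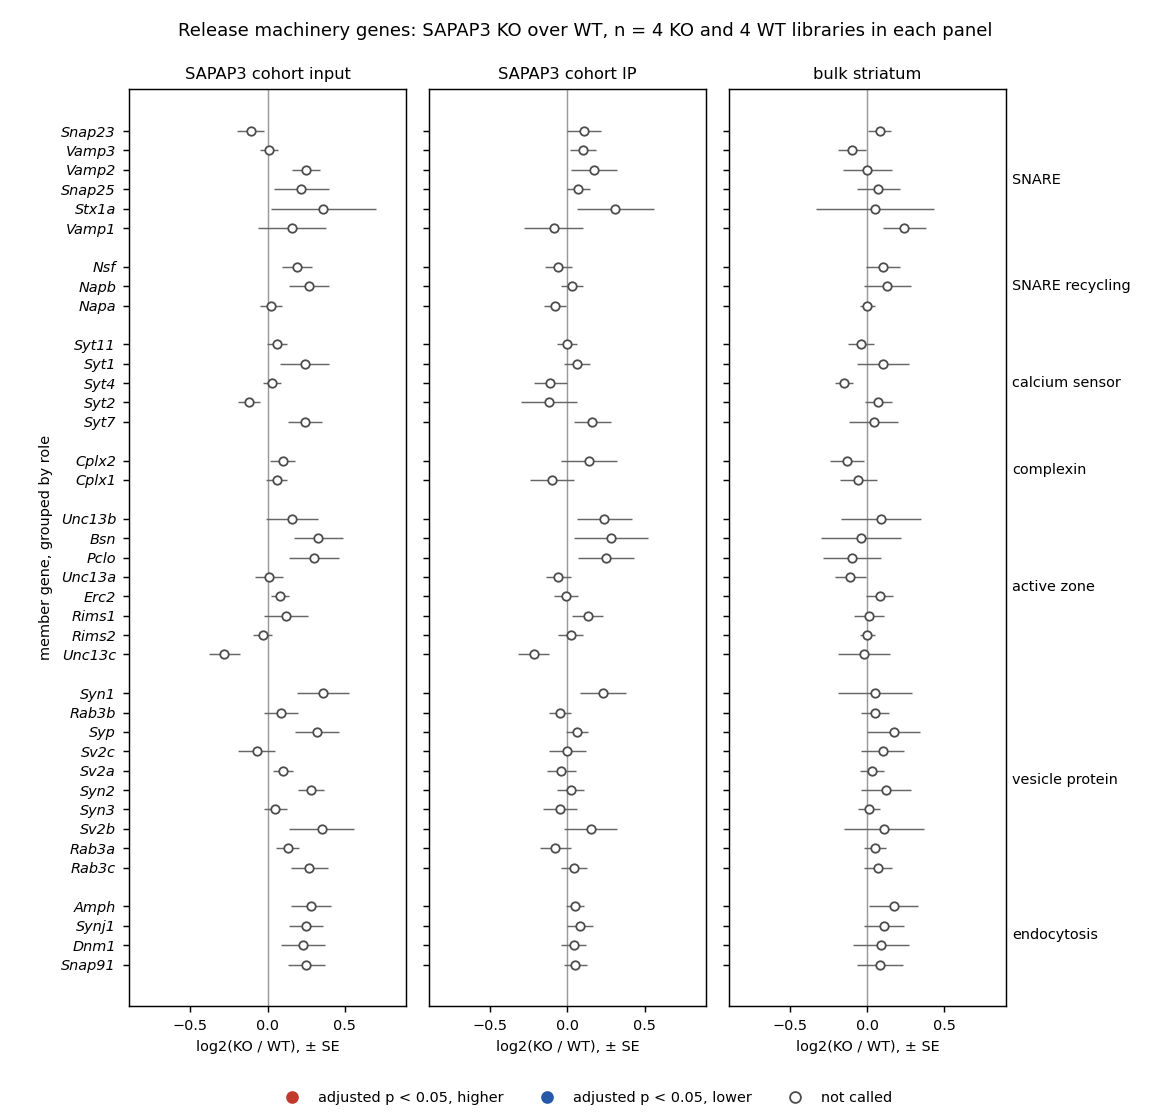
Log2(FC) of SAPAP3 KO over WT with its SE for the 38 genes in the input and IP of the SAPAP3 cohort and in bulk striatum, 4 libraries of each genotype per panel. All points are open since no member was called. In the input panel 33 of 38 lie above 0, at a median of 0.16. Without SAPAP3 WT mouse 1 that median is 0.07 and 6 members change sign.

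Of 56 other presynaptic genes, such as transmitter transporters, synaptotagmins and syntaxins outside the 38, 55 were tested in the Control group, with 24 higher, 24 lower and a median of -0.01. Of all genes tested there, 39.2% were called higher and 41.2% lower. The highest were Slc17a8 (2.82 ± 0.056) and Slc18a3 (2.21 ± 0.097), the vesicular transporters VGLUT3 and VAChT of cholinergic interneurons, then Syt13 (1.08 ± 0.090) and Rph3a (0.96 ± 0.074), which encodes the Rab3 effector rabphilin. Slc17a8 rose from 9.13 to 10.9 CPM in the inputs to 75.5 to 80.7 CPM in the IPs. Slc17a8 and Slc18a3 were also higher in the neuron IP (1.13 ± 0.18 and 1.09 ± 0.19) and in the SAPAP3 WT IP (2.07 ± 0.15 and 2.14 ± 0.22). The lowest were Stx3 (-1.87 ± 0.051), Doc2b (-1.11 ± 0.051), Synpr (-1.04 ± 0.074) and Slc17a6 (-0.96 ± 0.35). In the neuron IP 30 of the 55 were higher and 11 lower, with a median of 0.26, while 35.5% of all genes were called higher and 35.9% lower. In SAPAP3 WT mice 9 were higher and 25 lower, with a median of -0.26, while 32.7% of all genes were called higher and 34.6% lower. Between genotypes none was called.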

How the data were processed

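Ribosome-bound RNA, input RNA and bulk striatal RNA were sequenced by the authors, aligned with STAR to mm10 and deposited as raw counts per gene symbol. The submitters' processing notes also name HTSeq; its settings, the annotation and the use of strand are not given in the sources used here. Library kit and sequencer are given differently in the study's methods and in the labels, and the study names ComBat, which whole-number counts do not show. All 40 columns were used, and none was left without a sample. Groups were taken from the labels. The 38 members and all gene lists were chosen with earlier results of these data known.

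From the deposited counts, edgeR 4.0.16 in R 4.3.3 (filterByExpr, TMM, glmQLFit, glmQLFTest) was fitted to the compared groups alone, with Benjamini-Hochberg adjustment over all genes tested and a threshold of 0.05; all 38 members passed the filter in each comparison. IP over input was also counted beyond a log2(FC) of 1 in size, as in the study. Effects were set against each other through interaction terms. CPM used 1 TMM scaling of all 40 libraries, and FPKM used merged exons of curated RefSeq transcripts of GRCm38.p6, found for 99.2% of symbols. Ratios by mouse added 0.1 CPM to both levels. Alternatives were limma-voom (limma 3.58.1), DESeq2 1.42.0, no filter, FPKM above 5 in at least 4 libraries, total counts, scaling to 80 ribosomal protein genes, all 10 groups in 1 fit, Xist as a covariate and leaving out each library. Leaving out both libraries of SAPAP3 WT mouse 1 and Slc17a7 as a covariate were added after seeing the data.

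IP and input were paired by the labelled animal, or for neuron libraries by the number in the title. Among genes averaging 5 CPM or more, deviations of same-numbered IP and input correlated at 0.261 to 0.792, each highest with its own number, so the value with the number as a block is given where it changes a member's call. Separate mice gave the samples of a group, apart from 1 animal number that both bulk genotypes share.

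Named members are the 3 highest and 3 lowest in Control IP over input, the 2 highest and 2 lowest in the neuron and SAPAP3 WT groups, Snap25, Snap23, Vamp2, Vamp3 and up to 4 members with the lowest adjusted p per interaction, all by library; others are named by log2(FC). Of the member transcripts (GENCODE vM21), none matched another place of the genome at 95% identity or more across 20% or more of the transcript. Depth was 23.4 to 84.1 M counts per library, and PCR copies cannot be told apart. Figures were drawn with matplotlib.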

Additional observations from a re-analysis of the deposited data

Results flagged for a closer look

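Of 170 groups of 4 libraries looked at, 10 held a library that lay far from its other 3, where chance gives about 1 in 20. The input of SAPAP3 WT mouse 1 held 4 of them: 10976 CPM of the 38 genes summed (15144 to 15703 CPM in the other inputs), Snap25 at 1280 CPM (2270 to 2410), Syt7 at 148 CPM (216 to 222) and Synj1 at 257 CPM (354 to 364). The IP of this mouse held Vamp2 at 173 CPM (155 to 158). Syt11 stood apart in 3 groups, at 805 CPM in the input of KO mouse 1 (767 to 772), at 1190 CPM in the IP of WT mouse 4 (1090 to 1100) and at 941 CPM in the first WT bulk library (734 to 757). The IP of SAPAP3 KO mouse 1 held Snap23 at 16.4 CPM (21.4 to 21.7), and the fourth neuron input held Dlgap3, the gene targeted in the KO, at 302 CPM, below the others, which reached 362 CPM.

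By the interaction term, IP over input was higher in the neuron than in the Control group for 23 members and lower for 6. Among these members were Snap23 (-2.38), Vamp3 (-1.90), Napa (0.76) and Syt2 (1.79). Of all 16371 genes tested, 35.8% were called higher and 34.3% lower. Tag, sex and cohort cannot be told apart between these groups. Between SAPAP3 WT mice and the Control group 1 member was higher and 9 were lower, among them Syt2 (0.99), Vamp2 (-0.90), Syn1 (-1.25) and Synj1 (-0.45). Here 9.18% of all 16032 genes tested were called higher and 11.3% lower.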

How the results depend on the processing

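Over 6898 member values under the alternatives, 6265 kept their direction and call, 178 lost and 121 gained a call, 329 changed sign without a call and 5 changed sign with a call on one side. The 5 arose with total counts. Snap91 (-0.01) and Nsf (0.00) in the Control group, Syn3 (-0.01) in the neuron group and Sv2a (-0.01) in SAPAP3 KO mice were then no longer called, and Napb in the Control group (-0.19), not called otherwise, was then called lower. Scaling moved all genes together. Shares of all genes called by direction were counted in the main setting only. With total counts the Control group had 9 members higher and a median of -0.27, the neuron group 19 higher and a median of 0.17, SAPAP3 KO mice a median of -0.64, and SAPAP3 WT against Control 3 higher. Scaled to ribosomal protein genes, the Control group had 32 higher, 6 lower and a median of 0.56, the neuron group 1 higher, 10 lower and a median of -0.12, SAPAP3 WT mice 10 lower, neuron against Control 1 higher, 30 lower and a median of -0.68, and SAPAP3 WT against Control 0 higher, 28 lower and a median of -0.68. With FPKM above 5 the neuron group had 19 higher and a median of 0.23 over 36 members. SAPAP3 WT against Control had 2 higher and 16 lower with DESeq2, 2 higher with all groups in 1 fit, and 17 lower without mouse 1; the cause was not tested.

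With the replicate block, members higher and lower numbered 17 and 16 in the Control group, 31 and 6 in the neuron group, 6 and 21 in SAPAP3 WT mice, 7 and 28 in SAPAP3 KO mice, 25 and 6 for neuron against Control, 3 and 12 for SAPAP3 WT against Control, and 0 and 0 for KO against WT. Of all genes, the block called 12910 of 15476 in the Control group and 12880 of 16198 in the neuron group. It called 11341 of 15587 in SAPAP3 WT mice and 11979 of 15583 in SAPAP3 KO mice. Leaving out 1 library gave a neuron median of 0.32 to 0.43, and for SAPAP3 WT against Control 1 to 3 higher and 5 to 17 lower. The 17 came without the input of SAPAP3 WT mouse 1 (2 higher) and the 5 without that of mouse 2 (3 higher), 3 or 4; the higher count was also 3 without the IP of WT mouse 2 and 2 without the IP of Control mouse 2.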
